A study of Mus musculus with 3 samples.

Results

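The genes described here are 43 genes of hepatic amino acid and glucose metabolism, chosen by gene symbol from a fixed list: enzymes of glucose and glycogen handling, of the urea cycle and of the breakdown or conversion of amino acids, with 3 hepatocyte transcription factors. Of these, 38 had a probe under that symbol, of 13697 genes named on the array in all. Cps1, Sds, Gls2, Gpt and Hnf4a did not match a probe by symbol and were not analysed here. Fetal liver RNA of E14.5 mouse embryos was hybridised to 3 single-colour CodeLink oligonucleotide arrays, 1 for each of 3 genotypes. These were wild-type, DNase II-deficient, lacking the lysosomal nuclease with which macrophages digest engulfed DNA, and double-deficient, lacking both DNase II and IFN-IR, the type I interferon receptor. Both mutants thus share the loss of DNase II. The labels name no allele or strain and do not say how many embryos each array stands for.

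The liver keeps blood glucose stable by storing glycogen, releasing glucose and making new glucose from amino acids and lactate, and it turns the nitrogen of amino acids into urea. Periportal hepatocytes carry most of the urea cycle and gluconeogenesis, and hepatocytes around the central vein carry glutamine synthetase. Many of these enzymes reach their full level only around and after birth, so the fetal liver, which at this stage is also the main blood-forming organ, expresses part of the programme at a low level. HNF4A, FOXA2 and C/EBP alpha are transcription factors that hepatocytes use to switch these genes on.

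Each genotype rests on 1 array, which leaves nothing to test against, and every difference is a description of these arrays. The values are the authors' normalised intensities on a linear scale, and the 3 values of a gene are given throughout in the order wild-type, DNase II-deficient, double-deficient. The array medians were 0.958, 0.959 and 0.963. Values under the 25th percentile of an array (0.162, 0.159 and 0.163) were raised to that floor before log2 differences were taken. A 2-fold difference was counted only where 1 or both of the arrays compared read the gene above their median. For scale, a spread of the log2 difference was taken for each member among the 500 genes nearest in level that met this condition. Its median over the members was 0.50 in DNase II-deficient minus wild-type. It was 0.39 in double-deficient minus DNase II-deficient and 0.28 in double-deficient minus wild-type. The spread holds differences between the genotypes as well as measurement error, so it does not measure error alone. Among 501 genes with 2 probes above the array median, the probes' log2 differences lay a median of 0.32, 0.29 and 0.23 apart in the same comparisons. The probe for Dnase2a read 40.4, 48.6 and 39.7, and those for the receptor subunits Ifnar1 and Ifnar2 read 3.60, 4.66 and 3.17 and 0.574, 0.485 and 0.483. None of these probes was below the floor in its mutant array, and whether the probes lie in the deleted parts is unstated, so the genotypes rest on the labels. Intensities of different probes are not on a common scale, so each member was compared only with itself across arrays. Sums over a marker list give most weight to its brightest probes, and each was likewise compared only across arrays.

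Tissue markers matched the label. Of 18 hepatocyte secreted proteins 16 were measured and none was below the floor in all 3 arrays, with the fetal protein gene Afp at 582.5, 885 and 568. Of 12 erythroid markers 10 were measured, and each was above the floor in every array. Interferon-stimulated genes were bright in the DNase II-deficient array, where the summed intensity of 9 of them was 427, beside 8.60 in wild-type and 10.9 in the double-deficient array.

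Most members read lower in the DNase II-deficient array than in wild-type, and the lowest relative to wild-type were Agxt, Otc, Bhmt and G6pc. Of 37 members above the floor in at least 1 array, 28 were lower by any amount and 9 higher, where 63% of all 11647 such genes were lower. With cyclic loess scaling 22 were lower and 15 higher, where 47.7% of all genes were lower. Of 33 members that passed the level filter, 5 were at least 2-fold lower, against 6.17% of all genes compared, and 1 was at least 2-fold higher, against 7.67%. With cyclic loess scaling 3 were lower and 2 higher by that fold, where 288 of all 8382 genes compared were lower and 820 higher. Of the 5 lower members as deposited, Agxt and Uroc1 passed the filter only through wild-type. The median log2 difference of the 37 members was -0.42, beside -0.16 for all genes above the floor, so the members lay at -0.27 relative to the array-wide shift. That shift depended on scaling, from -0.16 as deposited to 0.05 after centring, and the members' median lay between -0.29 and -0.19 under 4 other scalings. In the double-deficient array 30 of the 37 were below wild-type, beside 56.3% of all genes, and the median was -0.29 beside -0.05. There 4 of 33 members were at least 2-fold lower, against 0.735% of all genes compared, and 0 were at least 2-fold higher, against 2.05%. The mutant arrays were each set against the same wild-type array, so these comparisons are not independent. Between the mutants, in double-deficient minus DNase II-deficient, 1 of 31 members was at least 2-fold higher, against 3.11%, and 3 were at least 2-fold lower, against 4.85%, but under 4 other scalings 0 were higher. By any amount 15 of 37 were lower, where 40% of all genes were, and the members' median of 0.09 equalled that of all genes to 2 decimals.

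**Figure D1:**
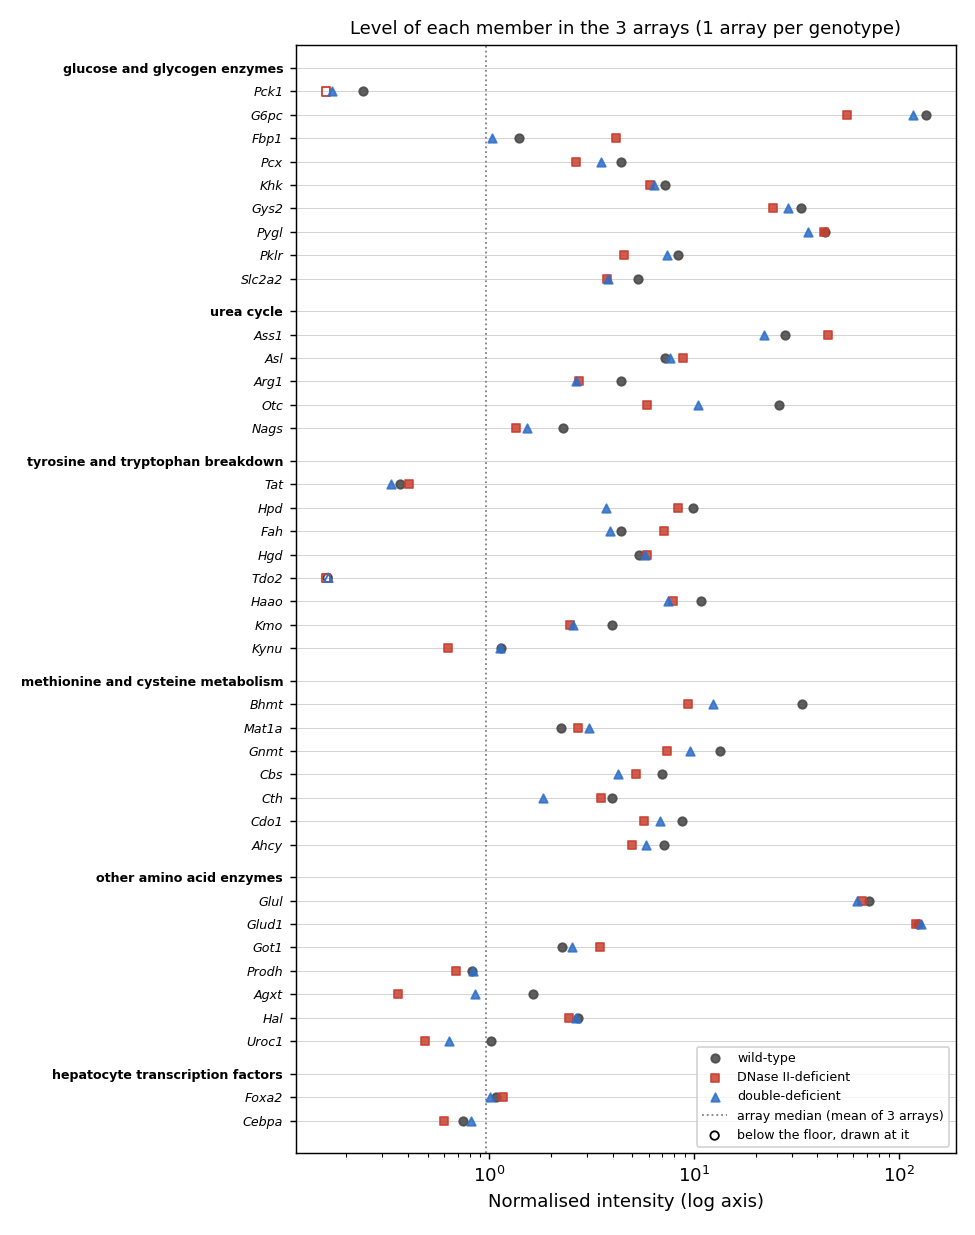
Normalised intensity of each of the 38 members (log axis) in the wild-type (circle), DNase II-deficient (square) and double-deficient (triangle) arrays, grouped by role, with open symbols for values below the floor and a dotted line at the array median. Positions along the axis can be compared within a row, not between rows: Otc read 25.9, 5.92 and 10.5, and Fbp1 1.39, 4.15 and 1.03.

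Upstream sequence is shown for the members at least 2-fold apart between the DNase II-deficient array and wild-type. The genes and motifs were chosen after the values had been seen. Each run is the 250 bases before the RefSeq transcript start in GRCm38.p6, written 5′ to 3′ along the gene's own strand. Capitals mark matches to CAAAGNNCA on either strand, loose letters that cover only part of a direct repeat of the kind HNF4A binds. G6pc, Bhmt, Agxt, Uroc1 and Otc were lower and Fbp1 was higher in that array.
G6pc: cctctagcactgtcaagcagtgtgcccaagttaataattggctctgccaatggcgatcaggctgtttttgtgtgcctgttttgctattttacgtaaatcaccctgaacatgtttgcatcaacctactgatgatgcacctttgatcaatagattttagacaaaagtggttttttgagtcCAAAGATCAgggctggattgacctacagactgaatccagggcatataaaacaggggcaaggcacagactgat
Bhmt: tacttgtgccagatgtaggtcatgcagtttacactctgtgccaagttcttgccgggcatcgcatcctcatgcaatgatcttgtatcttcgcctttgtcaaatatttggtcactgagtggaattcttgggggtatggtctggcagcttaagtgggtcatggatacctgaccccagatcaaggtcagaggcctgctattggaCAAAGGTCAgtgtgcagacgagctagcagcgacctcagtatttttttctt
Agxt: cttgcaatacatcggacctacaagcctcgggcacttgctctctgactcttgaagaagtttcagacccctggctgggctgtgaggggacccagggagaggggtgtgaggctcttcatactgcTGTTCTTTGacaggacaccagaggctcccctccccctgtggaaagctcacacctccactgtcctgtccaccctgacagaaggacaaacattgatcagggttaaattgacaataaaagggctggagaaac
Uroc1: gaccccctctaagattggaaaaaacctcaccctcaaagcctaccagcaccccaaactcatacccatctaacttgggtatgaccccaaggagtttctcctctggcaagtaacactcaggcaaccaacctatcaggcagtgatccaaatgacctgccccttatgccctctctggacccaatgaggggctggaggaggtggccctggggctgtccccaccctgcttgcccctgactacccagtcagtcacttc
Otc: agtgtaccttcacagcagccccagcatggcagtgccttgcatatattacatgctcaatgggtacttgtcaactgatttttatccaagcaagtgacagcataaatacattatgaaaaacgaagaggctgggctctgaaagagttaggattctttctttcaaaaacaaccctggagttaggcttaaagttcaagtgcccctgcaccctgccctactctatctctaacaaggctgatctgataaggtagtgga
Fbp1: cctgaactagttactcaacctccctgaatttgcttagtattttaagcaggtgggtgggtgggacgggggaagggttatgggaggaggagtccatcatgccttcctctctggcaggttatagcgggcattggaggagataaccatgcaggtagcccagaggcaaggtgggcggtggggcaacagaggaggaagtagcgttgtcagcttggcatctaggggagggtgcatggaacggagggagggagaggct
These windows are chr11:101367466-101367715 (forward strand) for G6pc, chr13:93637759-93638008 (reverse strand) for Bhmt, chr1:93134990-93135239 (forward strand) for Agxt, chr6:90333039-90333288 (forward strand) for Uroc1, chrX:10252055-10252304 (forward strand) for Otc and chr13:62888283-62888532 (reverse strand) for Fbp1. The match starts 72 bases before the start in G6pc, 50 in Bhmt and 129 in Agxt, where it lies on the opposite strand. Uroc1, Otc and Fbp1 have no match in this window.

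Over all members, 31 genes with 35 windows could be searched, and CAAAGNNCA was found in 7 of the 35 windows, those of Agxt, Ahcy, Bhmt, G6pc, Haao, Khk and Kmo, beside 5.49% of all 32851 windows. Other spellings of the HNF4A, FOXA and C/EBP letters had been tried first, and the stricter CAAAGTCCA was in 0 member windows and 0.384% of all. The FOXA letters TGTTTAC were in 0 member windows (3.17% of all) and the C/EBP letters TTGCNNAA in those of Hal and Hgd (9.56%). An interferon-stimulated response element was matched in that of Glul (2.98%), and ACGTG, the core of a hypoxia response element, was in those of Ass1, Cbs, Khk, Pcx, Pygl and Tat (16.6%). A match describes letters and shows no binding.

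Among genes of glucose and glycogen handling, G6pc and Fbp1, whose enzymes catalyse late steps of gluconeogenesis, differed in opposite directions in the DNase II-deficient array. G6pc, the glucose-6-phosphatase that releases free glucose, read 135 in wild-type, 56.0 in the DNase II-deficient array and 118 in the double-deficient array. It was 2.41-fold lower in the DNase II-deficient array than in wild-type and 2.11-fold higher in the double mutant than in the single mutant, and the double-deficient array was 1.14-fold below wild-type. The first difference missed 2-fold with quantile and loess scaling, at -0.95 on the log2 scale at the smallest, and the second under all 4 other scalings, at 0.89 at the smallest. Fbp1, fructose-1,6-bisphosphatase, read 1.39, 4.15 and 1.03, 2.98-fold higher in the DNase II-deficient array than in wild-type and 4.03-fold lower in the double-deficient than in the DNase II-deficient array. Its wild-type and double-deficient readings lay near the array medians of 0.958 and 0.963, where values are less certain. Pcx, the pyruvate carboxylase that feeds the pathway, read 4.41, 2.63 and 3.52. Pck1, the cytosolic PEP carboxykinase, was near the floor in every array at 0.241, 0.155 and 0.171, so it carries no usable difference.

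The other members of the group handle sugar uptake, fructose, glycogen and glycolysis. Pklr, the pyruvate kinase gene of liver and red cells, read 8.39, 4.55 and 7.36. It was 1.85-fold lower in the DNase II-deficient array than in wild-type, and which cells this reading comes from was not tested. Slc2a2, the GLUT2 glucose transporter of hepatocytes, read 5.30, 3.75 and 3.79, with the mutant arrays level. Gys2, the liver glycogen synthase, read 33.1, 24.3 and 28.9, and Khk, the fructose kinase, 7.18, 6.09 and 6.35. Pygl, the liver glycogen phosphorylase, read 43.8, 43.4 and 36.2 by its brighter probe and 10.3, 12.5 and 8.75 by the other. The group's median in DNase II-deficient minus wild-type was -0.50, and lay as high as -0.29 under other scalings. All 9 genes of this group read lower in the double-deficient array than in wild-type, by log2 differences from -0.50 to -0.18, none of them 2-fold, where 56.3% of all genes read lower.

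In the urea cycle Otc stood out. Otc, the mitochondrial ornithine transcarbamylase encoded on the X chromosome, read 25.9 in wild-type, 5.92 in the DNase II-deficient array and 10.5 in the double-deficient array. It was 4.38-fold lower and 2.48-fold lower than wild-type in the mutants, differences of -2.13 and -1.31 on the log2 scale, beside a spread among genes of like level of 0.41 and 0.26. Ass1, argininosuccinate synthase, went the other way in the DNase II-deficient array, at 27.7, 45.1 and 21.8, so it was 1.63-fold above wild-type there and 2.06-fold lower in the double mutant than in the DNase II-deficient array. With cyclic loess scaling Ass1 also counted as at least 2-fold higher than wild-type in the DNase II-deficient array. Arg1, the arginase that releases urea, read 4.37, 2.74 and 2.64, and Nags, which makes the activator of the first step, 2.28, 1.35 and 1.52, both lowest in the mutants.

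The 2 probes of Asl, argininosuccinate lyase, disagreed. One read 7.22, 8.85 and 7.59, with log2 differences from wild-type of 0.29 and 0.07, and the other 8.35, 5.21 and 4.96, with -0.68 and -0.75. No direction is given for Asl. Over the 5 measured urea cycle genes the median log2 difference was -0.67 in DNase II-deficient minus wild-type and -0.59 in double-deficient minus wild-type, and it stayed below 0 under every scaling tried.

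Among enzymes that break down tyrosine and tryptophan, the clearest difference was in the double-deficient array. Hpd, the second enzyme of tyrosine breakdown, read 9.87 in wild-type, 8.33 in the DNase II-deficient array and 3.72 in the double-deficient array. It was 2.66-fold lower than wild-type in the double mutant and 2.24-fold lower than in the DNase II-deficient array, while DNase II-deficient minus wild-type was -0.25 on the log2 scale. Hgd, the next enzyme of that pathway, was level at 5.39, 5.91 and 5.75. Fah, its last enzyme, read 4.42, 7.10 and 3.87, highest in the DNase II-deficient array by 1.61-fold over wild-type. Tat, which starts the pathway and is known to be induced around birth, was dim at 0.366, 0.403 and 0.330.

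None of the tryptophan enzymes of the kynurenine pathway differed by 2-fold. Kmo, the kynurenine hydroxylase, read 3.96, 2.46 and 2.56, and Haao, which acts later in the pathway, 10.8, 7.93 and 7.42. The mutant arrays were level with each other for both genes. Kynu, the kynureninase, read 1.14, 0.625 and 1.13, with the double-deficient array back at the wild-type reading. Tdo2, the first enzyme, was below the floor in all 3 arrays. The group's median in DNase II-deficient minus wild-type was -0.25 and reached 0.00 with scaling changed, so the group as a whole has no firm direction there.

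In methionine and cysteine metabolism Bhmt and Cth were the members with 2-fold differences. Bhmt, which remethylates homocysteine with betaine, read 33.8 in wild-type, 9.30 in the DNase II-deficient array and 12.4 in the double-deficient array. It was 3.63-fold and 2.73-fold lower than wild-type in the mutants, and the mutants differed from each other by 0.41 on the log2 scale, about the spread of 0.38 among genes of like level. Cth, the cystathionine gamma-lyase that makes cysteine, read 3.96, 3.50 and 1.84, so it was 2.16-fold lower than wild-type in the double-deficient array and close to wild-type in the other mutant. Cbs, which acts just before Cth, read 6.96, 5.19 and 4.26 by its brighter probe and 1.62, 1.16 and 1.05 by the other, lowest in the double-deficient array by both.

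The remaining members of the group differed by less than 2-fold. Gnmt, the glycine methyltransferase that disposes of excess methyl groups, read 13.4, 7.40 and 9.51. Cdo1, which oxidises cysteine, read 8.72, 5.70 and 6.84, and Ahcy, which splits S-adenosylhomocysteine, 7.11, 4.99 and 5.81. All 3 genes were highest in wild-type and lowest in the DNase II-deficient array. Mat1a, the liver enzyme that makes S-adenosylmethionine, went the other way at 2.24, 2.72 and 3.06. The group's median was -0.51 in DNase II-deficient minus wild-type, and as high as -0.28 under other scalings. It was -0.49 in double-deficient minus wild-type.

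Among the other amino acid enzymes, Agxt and Uroc1 differed by 2-fold and the enzymes of glutamate and glutamine did not. Agxt, the peroxisomal aminotransferase that detoxifies glyoxylate, read 1.62 in wild-type, 0.359 in the DNase II-deficient array and 0.852 in the double-deficient array. The first of these differences was 4.52-fold, but both mutant readings lay under the array median. With the floor set at that median the log2 difference was -0.76 in place of -2.18, a value fixed by the wild-type reading and that floor. Uroc1, the urocanase of histidine breakdown, read 1.02, 0.482 and 0.637, 2.11-fold lower in the DNase II-deficient array, a call lost under 5 of 9 other settings. The spread among genes of like level was 1.08 for Agxt and 1.28 for Uroc1 in that comparison, and the Uroc1 difference did not exceed it. Those genes had themselves passed the level filter. At a mean level under the array median, the filter keeps genes that read high in an array compared. That choice favours genes that differ, so the spread cannot judge either difference. Hal, the enzyme just before Uroc1, was level at 2.70, 2.44 and 2.64.

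Glud1, glutamate dehydrogenase, read 124, 121 and 129, and Glul, the glutamine synthetase of hepatocytes around the central vein, 71.3, 66.1 and 62.2. No comparison of either gene exceeded a log2 difference of 0.20. Got1, the cytosolic aspartate aminotransferase, read 2.25, 3.45 and 2.52, highest in the DNase II-deficient array. Prodh, the proline dehydrogenase, was dim at 0.820, 0.688 and 0.833. Of the transcription factors, Foxa2 read 1.08, 1.17 and 1.01 and Cebpa 0.746, 0.603 and 0.815, near or below the array median and with no difference beyond 0.44.

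**Figure D2:**
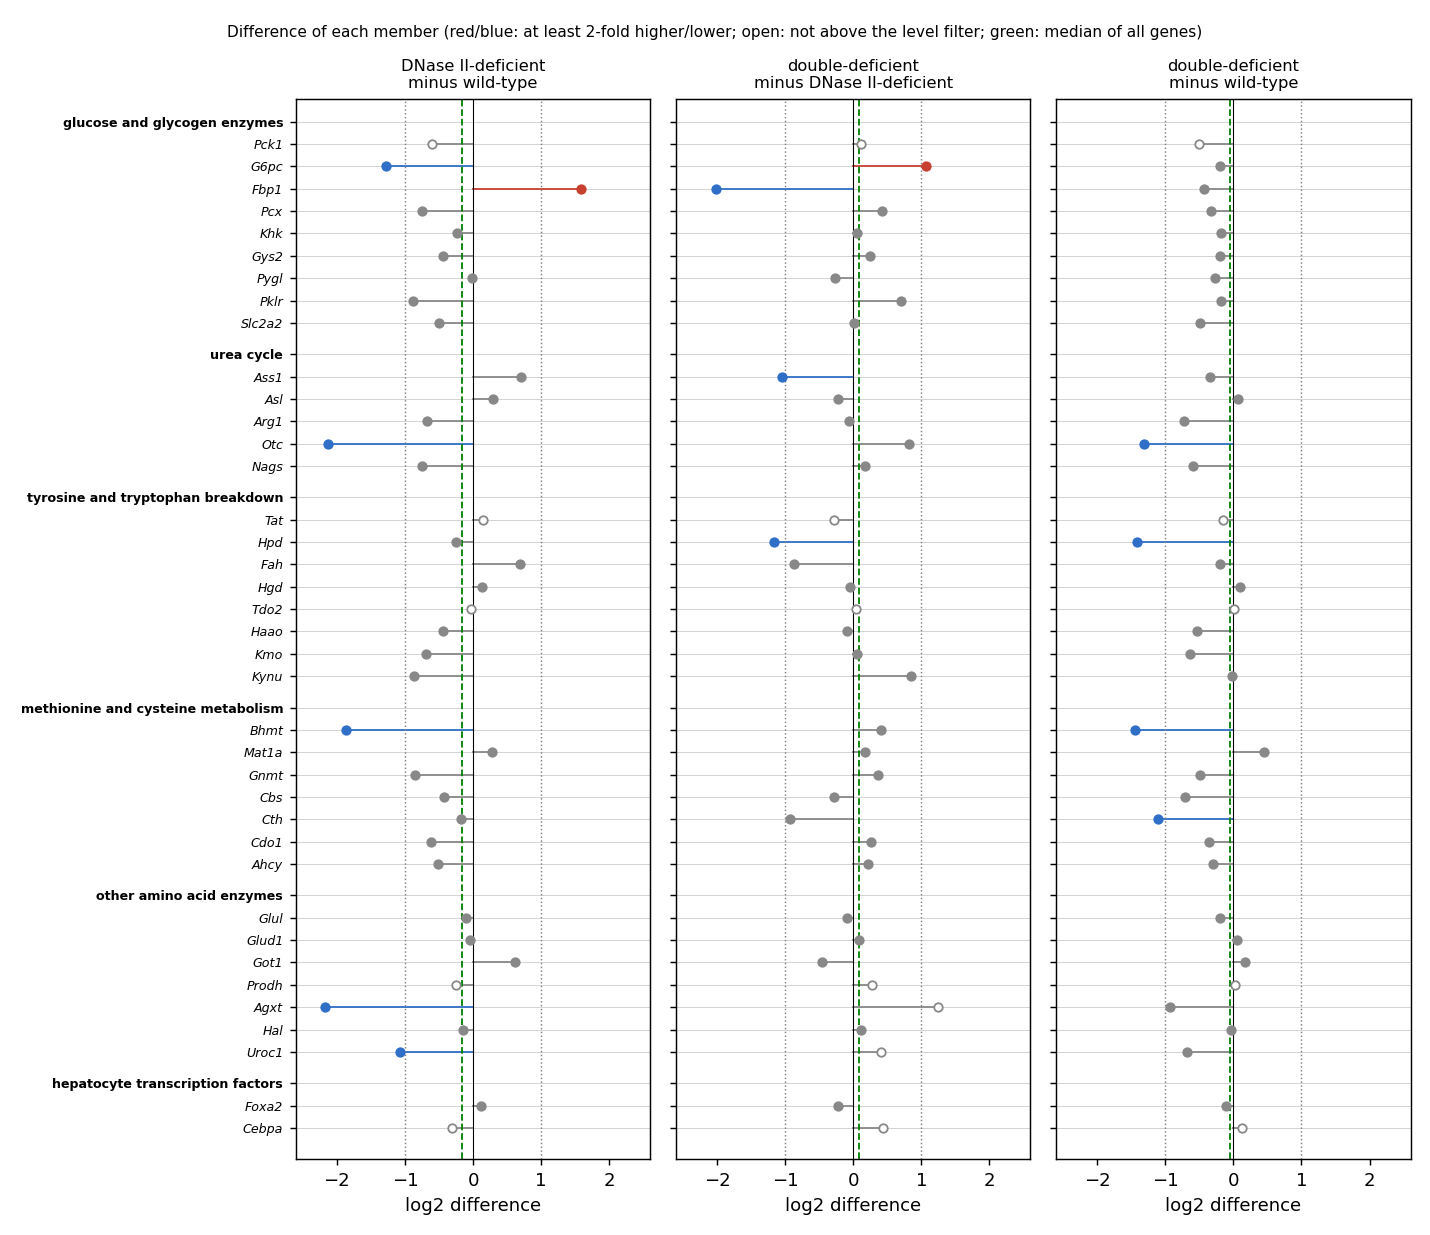
Log2 difference of each member in the 3 comparisons, with dotted lines at 2-fold, a dashed green line at the median of all genes above the floor, colour for members at least 2-fold higher (red) or lower (blue) and open symbols for members that did not pass the level filter. In DNase II-deficient minus wild-type Fbp1 stands at 1.58 and Otc at -2.13, and in double-deficient minus wild-type the 4 blue members are Otc, Hpd, Bhmt and Cth.

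A smaller fold, chosen after the values were seen, shows how far the lower readings extend. In DNase II-deficient minus wild-type 13 of 33 members were at least 1.5-fold lower, against 20.2% of all genes compared, and 4 were at least 1.5-fold higher (Fbp1, Ass1, Fah and Got1), against 13.3%. The 13 were G6pc, Pcx, Pklr, Arg1, Otc, Nags, Kmo, Kynu, Bhmt, Gnmt, Cdo1, Agxt and Uroc1. Of these, Kynu, Agxt and Uroc1 passed the level filter only through wild-type, where they read higher, which favours their being counted as lower. Under the 4 other scalings between 8 and 11 members were lower by that fold, and the share of all genes was not taken there. In double-deficient minus wild-type 10 of 33 were at least 1.5-fold lower, against 4.85%, and 0 were higher, against 4.89%. These were Arg1, Otc, Nags, Hpd, Kmo, Bhmt, Cbs, Cth, Agxt and Uroc1. Again Agxt and Uroc1 passed the filter only through wild-type. Under each of the other scalings 8 members were past that fold, again without a share of all genes. In double-deficient minus DNase II-deficient 4 of 31 were at least 1.5-fold higher (G6pc, Pklr, Otc and Kynu), against 12.5%, and 5 lower (Fbp1, Ass1, Hpd, Fah and Cth), against 10%. Kynu passed the filter there only through the double-deficient array.

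**Figure D3:**
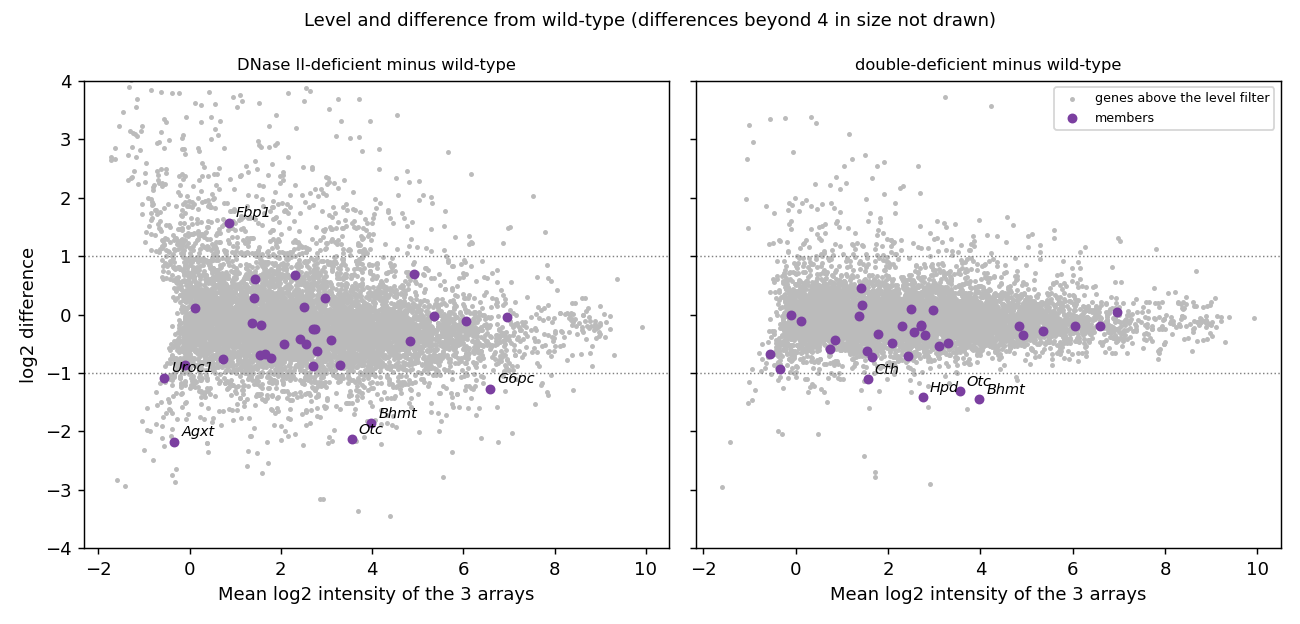
Log2 difference from wild-type against mean log2 intensity of the 3 arrays for genes above the level filter (grey) and members (purple), with the members that differed at least 2-fold named and dotted lines at 2-fold (differences beyond 4 on the log2 scale are not drawn). The grey cloud is narrower in double-deficient minus wild-type, where 0.735% of genes were at least 2-fold lower, than in DNase II-deficient minus wild-type, where 6.17% were.

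Genes of the same pathways that are not among the members gave a mixed picture, and nearly all of those for the breakdown of branched-chain amino acids, glycine and lysine read lower in the mutants. Of the 21 measured genes of that list 20 read lower than wild-type in the DNase II-deficient array, beside 63% of all genes, and 21 in the double-deficient array, beside 56.3%. The medians were -0.50 and -0.29, and as high as -0.29 and -0.22 under other scalings. Only 1 of them was at least 2-fold lower in the DNase II-deficient array, a share of 4.76% beside 6.17% of all genes compared. This was Gcsh, a subunit of the glycine cleavage system, at 32.4, 12 and 21.1. Over 10 further tyrosine and tryptophan genes the medians were -0.69 and -0.31. Aadat, the kynurenine aminotransferase, read 2.17, 0.749 and 1.01 and Fahd1 8.58, 3.97 and 6.63, both at least 2-fold lower in the DNase II-deficient array. They were 2 of the 8 genes of that list that passed the level filter, beside 6.17% of all genes compared. Aadat passed it only through wild-type. Gch1, which makes the cofactor for aromatic amino acid hydroxylation, was 3.12-fold higher in the DNase II-deficient array, at 2.29, 7.14 and 2.72. It was 1 of those 8 genes, beside 7.67% of all genes compared. Of 17 further methionine and methyl-group genes, 1 was at least 2-fold lower in the DNase II-deficient array, beside 6.17% of all genes compared. This was the sarcosine dehydrogenase gene Sardh at 17.1, 6.87 and 12.7.

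Further genes of ammonia, glucose and transcriptional control held 2-fold differences in both directions. Of 12 further urea cycle and ammonia genes, the arginine transporter gene Slc7a2 was 5.62-fold higher in the DNase II-deficient array, at 0.350, 1.97 and 0.498, and Odc1, the ornithine decarboxylase, 2.34-fold lower, at 56.0, 23.9 and 39.4. Of 17 further glucose and glycogen genes, Gpd1, which links glycolysis to glycerol, was at least 2-fold lower at 1.31, 0.514 and 1.07, and 0 of those that passed the level filter were at least 2-fold higher. Of 15 further hepatocyte transcription factors, 11 passed the level filter. Of these, 0 were at least 2-fold lower in the DNase II-deficient array, beside 6.17% of all genes compared. In that array 3 were at least 2-fold higher, beside 7.67%. These were Cebpb and Cebpd, the C/EBP factors induced in inflammation, at 1.87, 8.92 and 3.71 and at 2.30, 9.57 and 4.45, and the fatty acid sensor gene Ppara at 0.454, 0.966 and 0.489. In DNase II-deficient minus wild-type, Ppara and Slc7a2 passed the level filter only through the DNase II-deficient array, and Gpd1 only through wild-type. The filter favours dim genes that differ in this way, and Ppara barely passed the array median of 0.959. In all, 5 of 79 further genes that passed the filter were higher by 2-fold or more and 6 were lower in that comparison, shares near those of all genes (7.67% and 6.17%). In double-deficient minus wild-type 0 of 77 were 2-fold higher, beside 2.05% of all genes compared, and 1, Aadat, was 2-fold lower, beside 0.735%.

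The members were set beside hepatocyte genes for secreted proteins. Whether the members' readings all come from hepatocytes was not tested. The 16 measured secreted protein genes had a median log2 difference of 0.07 in DNase II-deficient minus wild-type and -0.23 in double-deficient minus wild-type, where the members had -0.42 and -0.29. They ran from -1.18 for Serpina1a to 1.12 for Apoc3 in the first comparison. There 7 read lower than wild-type, beside 63% of all genes, and 9 higher. In the first comparison 3 of the 16 were at least 1.5-fold lower, beside 20.2% of all genes compared, and 2 at least 1.5-fold higher, beside 13.3%. In the second 1 was lower by that fold, beside 4.85%, and 0 were higher. Under the other scalings the first of these medians was as high as 0.36. Their summed intensity was 4438 in wild-type, 4213 in the DNase II-deficient array and 4056 in the double-deficient array. In whole tissue, fewer cells of a type and less RNA per cell cannot be told apart.

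Markers of other cells moved with the genotypes as well. All 10 measured erythroid markers read lower in the DNase II-deficient array, beside 63% of all genes, and 8 were at least 2-fold lower, beside 6.17%. Their summed intensity was 471 in wild-type, 161 in the DNase II-deficient array and 402 in the double-deficient array. For the granulocyte list (8 of 8 measured) the sums were 269, 765 and 615, and for the stellate and mesenchymal list (8 of 8) 128, 181 and 139. For the cholangiocyte list (4 of 5), of which Sox9 was below the floor in all arrays, they were 3.41, 6.19 and 4.12. The macrophage list (7 of 11) summed to 122, 81.8 and 104, but its members went opposite ways. Marco, a scavenger receptor, read 41.1, 3.98 and 13.5, and Cd5l, a secreted macrophage protein, 30.6, 3.41 and 4.10. Clec4f, a Kupffer cell lectin, read 1.27, 0.177 and 0.0902, the last below the floor, while the complement gene C1qb read 36.8, 65.4 and 69.4. The endothelial list (6 of 7) summed to 37.4, 26.4 and 33.4, which follows its brightest member Stab2 at 23.0, 10.2 and 22.1. Pecam1 at 0.775, 2.01 and 0.925 and Emcn at 0.827, 1.93 and 0.817 were at least 2-fold higher in the DNase II-deficient array than in wild-type, and the list median was 0.04. Both genes passed the level filter there only through the DNase II-deficient array, and the filter favours genes that differ in this way. The hypoxia genes (10 of 12 measured) summed to 308, 559 and 339, which follows the brightly read Ldha at 196, 303 and 213. Ldha is also counted among the further glucose genes. The hypoxia list's median log2 differences from wild-type were 1.13 and 0.20 in the mutants. In the DNase II-deficient array 5 of the 10 were at least 2-fold higher, beside 7.67% of all genes compared. The part of these shifts in the members' differences was not tested.

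**Figure D4:**
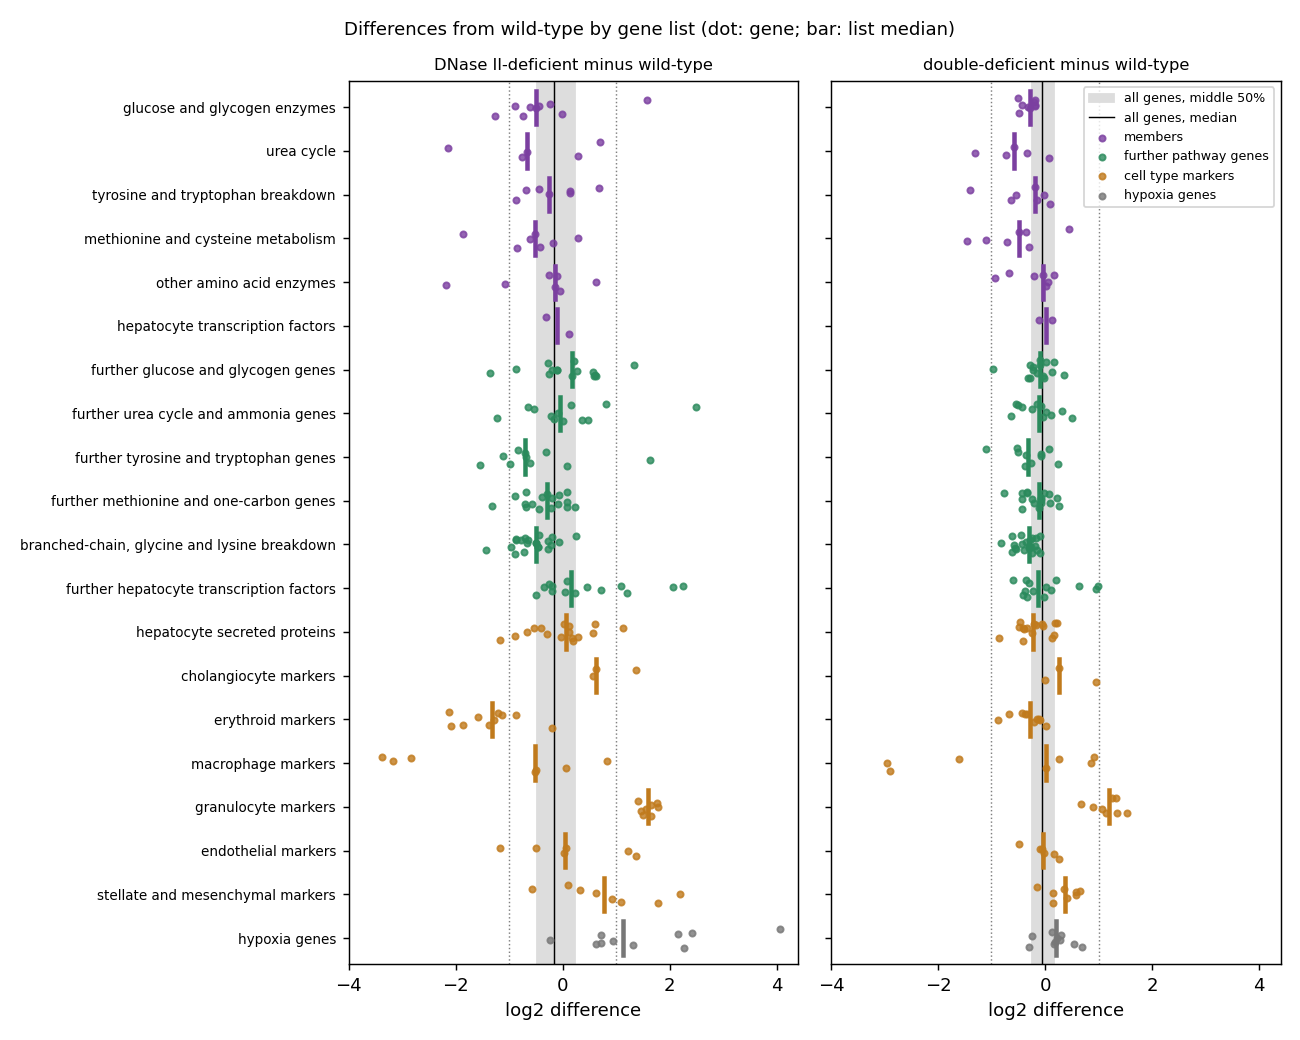
Log2 differences from wild-type of the genes (dots) of each list above the floor in at least 1 array, with a bar at each list median, for the DNase II-deficient (left) and double-deficient (right) arrays, the members' role groups in purple, further pathway genes in green, cell type markers in orange and hypoxia genes in grey. The shaded band holds the middle 50% of all genes, and the urea cycle bars lie at -0.67 and -0.59 while those of the secreted proteins lie at 0.07 and -0.23.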

How the data were processed

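Per the labels' protocols, poly(A) RNA selected from fetal liver RNA was copied into biotin-labelled RNA, hybridised to CodeLink arrays, stained with Cy5-streptavidin and read with CodeLink System Software. The authors deposited normalised intensity values on a linear scale, some at or below 0. For the software version and any background correction or filter, nothing is given in the sources used here. Complete readings existed for 20164 of 20289 probes. Among all probes, 15120 carried 1 gene symbol in the platform annotation, 38 several and 5131 none. All 38 members found also matched by Entrez identifier.

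Where a gene had several probes, the brightest on average was used. Values were floored at the 25th percentile and log2 transformed, and differences were counted at 2-fold above a filter at the array median (Python 3.11.15, pandas 2.3.3). A list median was taken over genes above the floor in at least 1 array. The spread given is 1.4826 times the median absolute deviation over 500 genes of like level that passed the level filter. An array has no read depth, and having 3 arrays limits the precision. The counting step was run on simulated data with large planted differences in bright genes and little noise. That run does not bear on calls of dim genes or on measurement error. Members, lists and folds were chosen with earlier results of these data known. All members are accounted for, and values are given for each one above the floor. Of other lists, up to 4 genes with the largest differences were eligible for naming. Alternatives were the floor, filter, probe choice and scaling (quantile, 75th percentile, cyclic loess in limma 3.58.1, and centring on the median). Promoter windows came from RefSeq, GRCm38.p6.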

Additional observations from a re-analysis of the deposited data

How the results depend on the processing

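Between DNase II-deficient and wild-type, 6 members differed at least 2-fold, and 3 with the filter at the 75th percentile, which leaves out dim genes, while the other planned settings gave 4 to 6. With a fold of 1.5, chosen after seeing the data, 17 members differed in that comparison, 9 between the mutants and 10 between double-deficient and wild-type. Otc and Bhmt were counted under all 10 settings in both comparisons with wild-type, and Hpd in both comparisons of the double-deficient array. Calls split 2 higher to 3 lower with loess in DNase II-deficient minus wild-type, against 1 to 5. Among all genes, 55.4% of calls in that comparison were higher as deposited and 74.0% with loess. The median member difference there, -0.42, was -0.25 with the floor at the array median, -0.29 with quantile and 75th percentile scaling, -0.19 with loess and -0.22 after centring. Between the mutants the median of 0.09 turned to -0.057 with loess and -0.025 after centring, so it has no direction. No paired analysis was possible because each genotype has 1 array. With the floor at the array median, DNase II-deficient minus wild-type was -0.76 for Agxt and -0.085 for Uroc1. These dim genes passed the filter in that comparison only through wild-type, and their DNase II-deficient readings lay under that floor. The values are thus fixed by the wild-type reading and the floor, and do not show how large either difference is. The filters and the choice of probe cannot alter the log2 difference of a member with 1 probe.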
